A study of Mus musculus with 25 samples.

Results

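The genes described here are 46 genes listed as hepatocyte genes, most of which encode secreted proteins. They were taken as a list of symbols, and all 46 were found among the 24984 genes of the deposited count table. They comprise 10 plasma carriers and other secreted proteins (Alb, Ahsg, Ttr, Trf, Hp, Hpx, Ambp, Rbp4, Gc, Vtn), 9 apolipoproteins, 8 genes of the clotting and kinin system, 8 protease inhibitors, 10 enzymes or carriers of intracellular metabolism and the iron hormone gene Hamp. The question addressed was whether the levels of these genes in tumour cells sorted from the liver were those of the cultured parental cells, those of tumour cells sorted from the peritoneum, or those of the host cells sorted from the same liver tumours.

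The hepatocyte is the main source of plasma proteins. It secretes albumin, the carriers of iron, haem, retinol and vitamin D, the apolipoproteins of circulating lipoproteins, fibrinogen and most clotting factors, and it holds the urea cycle and gluconeogenesis. Embryonic liver progenitors can give rise to hepatocytes or to bile duct cells, and express this programme weakly or in part until they differentiate.

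RNA was sequenced from 9 cultures and from 16 sorted cell populations of 4 athymic nude mice, an immunodeficient strain that lacks mature T cells. BMEL cells are bipotential cells of mouse embryonic liver (C57B/6_C3H origin), a clonally derived line, and 3 cultures carried an empty vector. RasLOW and RasHIGH cells, 3 cultures each, are BMEL cells transduced with a bicistronic vector for human H-Ras G12V and a fluorescent protein, and sorted by fluorescence into populations whose ranges overlap. Cells carrying the oncogene were injected into the liver, and from each of the 4 mice a liver tumour and a peritoneal tumour were dissociated and sorted by fluorescence into tumour cells (positive) and stromal cells (negative), giving 4 libraries of each of 4 kinds. The labels do not say which Ras population was injected in these mice, nor do they give the age of the mice. The study's methods describe the replicates of cell lines and of sorted tumour cells as independent biological samples, and do not say how the cultures were separated.

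Total counts per library ran from 20818989 to 51241336, so that 3 counts corresponded to between 0.0586 and 0.144 CPM (library-scaled counts, the usual counts-per-million unit), the level under which a gene cannot be told from absent. The Hras row, on which the transgene could be read only as far as human and mouse reads are shared, had medians of 88.0 CPM in empty vector, 91.5 in RasLOW and 76.2 in RasHIGH cultures, so it does not check the labels. As markers of the sorted cells, the 8 biliary and progenitor genes summed to 8430 to 9995 CPM in liver tumour cells and 1801 to 2298 CPM in liver stromal cells, and the 10 leukocyte genes to 48.7 to 71.5 CPM and 12780 to 15420 CPM. Most of the first sum was Krt8, Krt18 and Krt19, with means of 3841, 2176 and 2271 CPM in liver tumour cells. These and Sox9 had lower means in liver stromal cells than in liver tumour cells, while Spp1, Krt7, Epcam and Cldn4 had higher ones. Peritoneal tumour cells of mouse 1 stood apart, with 333 CPM of leukocyte genes and 1532 CPM of the 8 fibroblast and stellate genes, against 37.2, 47.3 and 34.3 CPM and 339.7, 340.1 and 223 CPM in mice 2, 3 and 4. All 6 globin genes listed had no counts in any library. In these bulk samples fewer cells of a type and less RNA per cell cannot be told apart.

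Promoter sequences are shown for 5 members on which the results turn: 3 genes with higher levels in liver than in peritoneal tumour cells (Alb, Fga, Fgb), and 2 that the tumour cells held at both sites (Gc, Apob). Each is the 250 bases before the start site, 5′ to 3′ on the gene's strand, from RefSeq on GRCm38.p6. Capitals mark matches on either strand to 5 motifs of liver transcription factors and the core promoter: GTTAAT (HNF1 half-site), CAAAGTCCA (HNF4), TGTTTAC (FOXA), TTGCNNAA (C/EBP) and TATAAA (the core promoter box).
Alb (chr5:90460620-90460869, plus strand): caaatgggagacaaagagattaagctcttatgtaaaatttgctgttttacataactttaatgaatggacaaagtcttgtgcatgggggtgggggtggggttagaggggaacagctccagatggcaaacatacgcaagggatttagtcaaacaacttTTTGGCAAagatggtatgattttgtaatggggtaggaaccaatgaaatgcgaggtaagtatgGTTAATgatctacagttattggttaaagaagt
Fga (chr3:83025903-83026152, plus strand): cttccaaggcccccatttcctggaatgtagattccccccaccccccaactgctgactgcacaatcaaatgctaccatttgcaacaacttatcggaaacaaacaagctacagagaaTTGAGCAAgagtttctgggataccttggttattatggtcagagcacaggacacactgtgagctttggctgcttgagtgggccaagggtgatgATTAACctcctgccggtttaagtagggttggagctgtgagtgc
Fgb (chr3:83049864-83050113, minus strand): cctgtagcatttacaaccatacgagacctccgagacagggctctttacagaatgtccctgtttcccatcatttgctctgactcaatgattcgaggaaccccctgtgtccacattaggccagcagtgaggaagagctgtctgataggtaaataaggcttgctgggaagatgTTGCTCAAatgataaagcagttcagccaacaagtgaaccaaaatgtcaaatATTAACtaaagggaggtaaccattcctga
Gc (chr5:89457899-89458148, minus strand): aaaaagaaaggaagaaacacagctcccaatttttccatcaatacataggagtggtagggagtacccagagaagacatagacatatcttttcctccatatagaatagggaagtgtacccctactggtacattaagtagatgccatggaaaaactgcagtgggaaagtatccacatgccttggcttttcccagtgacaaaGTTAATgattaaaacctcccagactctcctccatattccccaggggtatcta
Apob (chr12:7977427-7977676, plus strand): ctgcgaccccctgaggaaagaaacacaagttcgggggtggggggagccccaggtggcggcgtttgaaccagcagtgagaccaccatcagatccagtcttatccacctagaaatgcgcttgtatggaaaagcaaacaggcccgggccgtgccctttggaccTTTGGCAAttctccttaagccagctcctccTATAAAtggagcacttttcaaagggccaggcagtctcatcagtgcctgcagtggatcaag

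The HNF1 half-site began 32 bases before the start of Alb, 43 before that of Fga, 29 before that of Fgb and 52 before that of Gc, and did not occur in the Apob window. A C/EBP match was present 94 bases before Alb, 135 before Fga, 80 before Fgb and 90 before Apob. Among 32851 RefSeq promoter windows of this length, 6.43% held the HNF1 half-site, 9.56% the C/EBP motif, 12.4% the core promoter box, 3.17% the FOXA motif and 0.384% the HNF4 motif. Promoters were found for 36 of the 46 members, 78.3%, so no share of members with a motif is given. A match describes letters and is not evidence of binding.

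Across the 25 libraries the 46 genes fell into 4 classes by their mean levels. In culture, 13 members reached a mean of 1 CPM in at least 1 of the 3 groups (Alb, Trf, Hpx, Ambp, Rbp4, Gc, Apoa1, Apob, Apoc2, Fgb, Serpina1a, Serpina1b, Itih2). A further 8 did not, but reached it in stromal cells of both sites (Ahsg, Hp, Vtn, F10, Kng1, Serpina3k, Itih3, Arg2). In 19 others it was reached in liver stromal cells and not in peritoneal stromal cells, among them Fga, Fgg, Plg, F2, Ttr, Apoc1, Itih4, Fabp1, Cps1 and Pck1. They are called genes in liver stroma alone by that limit, though Apoc1 and F9 had means of 0.844 and 0.688 CPM in peritoneal stroma. The last 6 (Apoa5, Ass1, G6pc, Otc, Tdo2, Hamp) had means under 1 CPM in cultures and stroma, though in liver stroma of mouse 2 Hamp and Tdo2 reached 2.32 CPM, Otc 1.97 CPM and Apoa5 1.90 CPM.

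The number of members with a mean of at least 1 CPM was 12 in empty vector cultures, 6 in RasLOW, 8 in RasHIGH, 19 in liver tumour cells, 11 in peritoneal tumour cells, 40 in liver stromal cells and 15 in peritoneal stromal cells. None of the 10 genes of intracellular metabolism reached a mean of 1 CPM in any group of cultures or tumour cells, and 6 did in liver stromal cells. Together the 46 members took between 0.0944% and 0.353% of the counts of a library.

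**Figure D1:**
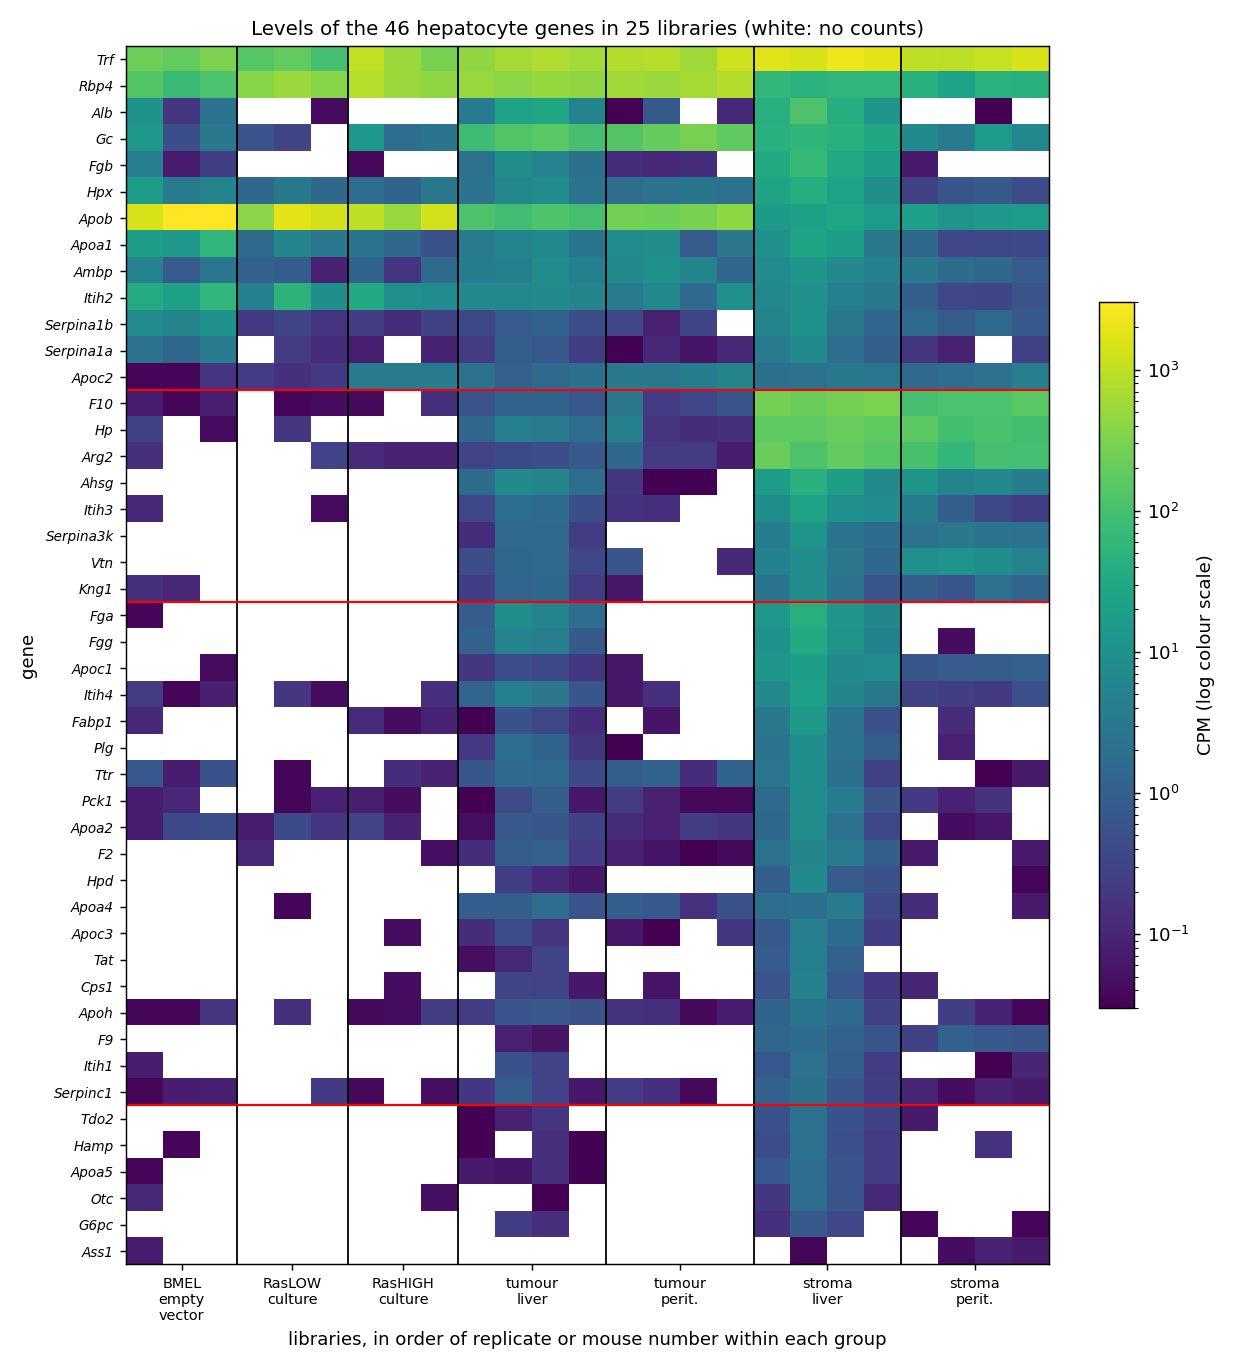
Levels of the 46 genes (rows) in the 25 libraries (columns, grouped by kind and ordered by replicate or mouse number), as CPM on a logarithmic colour scale, with white for no counts. Red lines separate the 4 classes: 13 genes detected in culture, and of those not detected there 8 in stroma of both sites, 19 in liver stroma alone and 6 with means under 1 CPM in cultures and stroma. Most genes of the lower 3 classes are white or dark in cultures and in peritoneal tumour cells, higher in liver tumour cells, and highest in liver stroma, for most of them in mouse 2.

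In cultures most members did not pass the filter on low counts, and those called between Ras and control cells went in both directions. Of the 46 members, 11 passed the filter on low counts in RasLOW against empty vector and 11 in RasHIGH against empty vector. A gene was called when its log2 fold change exceeded 1.5 in size at an unadjusted p under 0.01. In RasLOW 1 member was higher and 3 were lower, where 0.861% and 3.54% of the 12307 genes tested were. In RasHIGH 2 were higher and 3 lower, where 3.62% and 6.03% of 12331 genes were. The median log2 fold change of the tested members was -1.95 in RasLOW and -1.41 in RasHIGH, against 0.01 and -0.02 over all genes. A gene read almost only in 1 group, such as Serpina1a or Serpina1b, passes the filter through that group and had to differ. The counts and medians are therefore not evidence of a property of the list. With BMEL empty vector replicate 2 left out, 8 members were called in RasLOW in place of 4. Empty vector replicates 1 and 2 were sequenced in lane 3 and the other cultures in lane 4, so lane and group largely coincide. With lane 4 libraries alone 5 members were called in RasLOW and 6 in RasHIGH, but the control arm is then 1 library, assumed to vary like the Ras cultures, so these counts do not tell lane and group apart.

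Serpina1b, which encodes an alpha-1-antitrypsin that inhibits neutrophil elastase, measured 7.82, 5.74 and 11 CPM in the empty vector cultures. In RasLOW it measured 0.213, 0.331 and 0.172 CPM, and in RasHIGH 0.238, 0.134 and 0.288 CPM. No Ras culture reached the lowest empty vector culture. The log2 fold change was -5.05 in RasLOW (standard error, SE, 0.42; adjusted p = 0.00340 in the quasi-likelihood test of edgeR) and -5.17 in RasHIGH (SE 0.41, adjusted p = 5.18e-04).

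Its paralog Serpina1a measured 2.33, 1.49 and 3.49 CPM in empty vector cells, 0, 0.220 and 0.129 CPM in RasLOW, and 0.0793, 0 and 0.0961 CPM in RasHIGH. The log2 fold change was -4.34 in RasLOW (SE 0.81, adjusted p = 0.0266) and -5.25 in RasHIGH (SE 0.69, adjusted p = 0.00277). The Ras cultures lay at or near the level of 3 counts. The 2 genes are close copies, so reads may have been divided between them by the authors' counting, and their separate values are uncertain.

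Apoa1, the main apolipoprotein of high-density lipoprotein, measured 18.9, 14.9 and 58.7 CPM in empty vector cells, 1.63, 5.55 and 3.05 CPM in RasLOW and 2.58, 1.39 and 0.528 CPM in RasHIGH. Both Ras groups lay under the empty vector group without overlap. Its log2 fold change was -3.16 in RasLOW (SE 0.63, adjusted p = 0.0322) and -4.31 in RasHIGH (SE 0.72, adjusted p = 0.00675).

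Rbp4, the retinol carrier of plasma, moved the other way. It measured 137, 74.4 and 114 CPM in empty vector cells, 385, 542 and 389 CPM in RasLOW and 827, 538 and 435 CPM in RasHIGH, with every Ras culture above every control. The log2 fold change was 2.02 in RasLOW (SE 0.26, adjusted p = 0.00951) and 2.47 in RasHIGH (SE 0.32, adjusted p = 0.00248).

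Apoc2, the cofactor of lipoprotein lipase, separated RasHIGH from both other groups. It measured 0.0371, 0.0372 and 0.166 CPM in empty vector cells and 0.248, 0.147 and 0.214 CPM in RasLOW, at or near the level of 3 counts, and 3.37, 3.26 and 3.55 CPM in RasHIGH. The log2 fold change in RasHIGH was 5.38 against empty vector (SE 0.52, adjusted p = 9.04e-04) and 4.03 against RasLOW (SE 0.40, adjusted p = 0.0331). In the mm9 annotation Apoc2 overlaps Apoc4 on the same strand, so reads of the 2 genes may not have been told apart.

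RasHIGH against RasLOW tested 9 members, of which 3 were higher and 0 lower, where 1.23% and 0.886% of 11962 genes were. Besides Apoc2 these were Trf, which encodes the iron carrier transferrin, and Gc, the vitamin D carrier. Trf measured 146, 188 and 96.1 CPM in RasLOW and 1036, 525 and 297 CPM in RasHIGH (log2 fold change 2.12, SE 0.47, adjusted p = 0.171). Gc measured 0.567, 0.331 and 0 CPM in RasLOW and 13.8, 1.88 and 2.498 CPM in RasHIGH (log2 fold change 4.26, SE 1.17, adjusted p = 0.247). The groups of both genes did not overlap, but RasHIGH replicate 1 was the highest for both, and the call of Gc was lost without it or without any 1 of the 3 RasLOW cultures. Without RasLOW replicate 3, 1 member was called in place of 3. No fold change of a member passed 1.5 with an adjusted p under 0.01 in this comparison in edgeR. Over all 11962 genes 0 did so, so this is not particular to the members. In edgeR 3 members had an unadjusted p under 0.05, and DESeq2 called 3 at its unadjusted p. Apoc2 and Gc were low in RasLOW and passed the filter through RasHIGH, so the count called is not evidence of a property of the list.

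Several members varied widely within the empty vector group. Alb, the carrier protein of plasma, measured 10.3, 0.186 and 2.37 CPM in the empty vector cultures, had no counts in RasHIGH and reached 0.0429 CPM in 1 RasLOW culture. Gc in the same empty vector cultures measured 14.8, 0.484 and 2.95 CPM, Hpx, the haem carrier, 16.5, 3.28 and 5.31 CPM, and Fgb, the fibrinogen beta chain, 4.11, 0.0745 and 0.249 CPM. Replicate 1 was the highest of the 3 for all 4 genes. Apob, the structural protein of very-low-density lipoprotein, was the most abundant member per kilobase in empty vector cells (182 CPM per kilobase of exon, or RPKM, mean of 3), Trf apart, for which no length was found. Its CPM was 1484, 3215 and 2917 there, 402, 1908 and 1369 in RasLOW and 989, 498 and 1350 in RasHIGH, where the log2 fold change of -1.41 (SE 0.40, adjusted p = 0.0445) lay within the limit of 1.5.

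**Figure D2:**
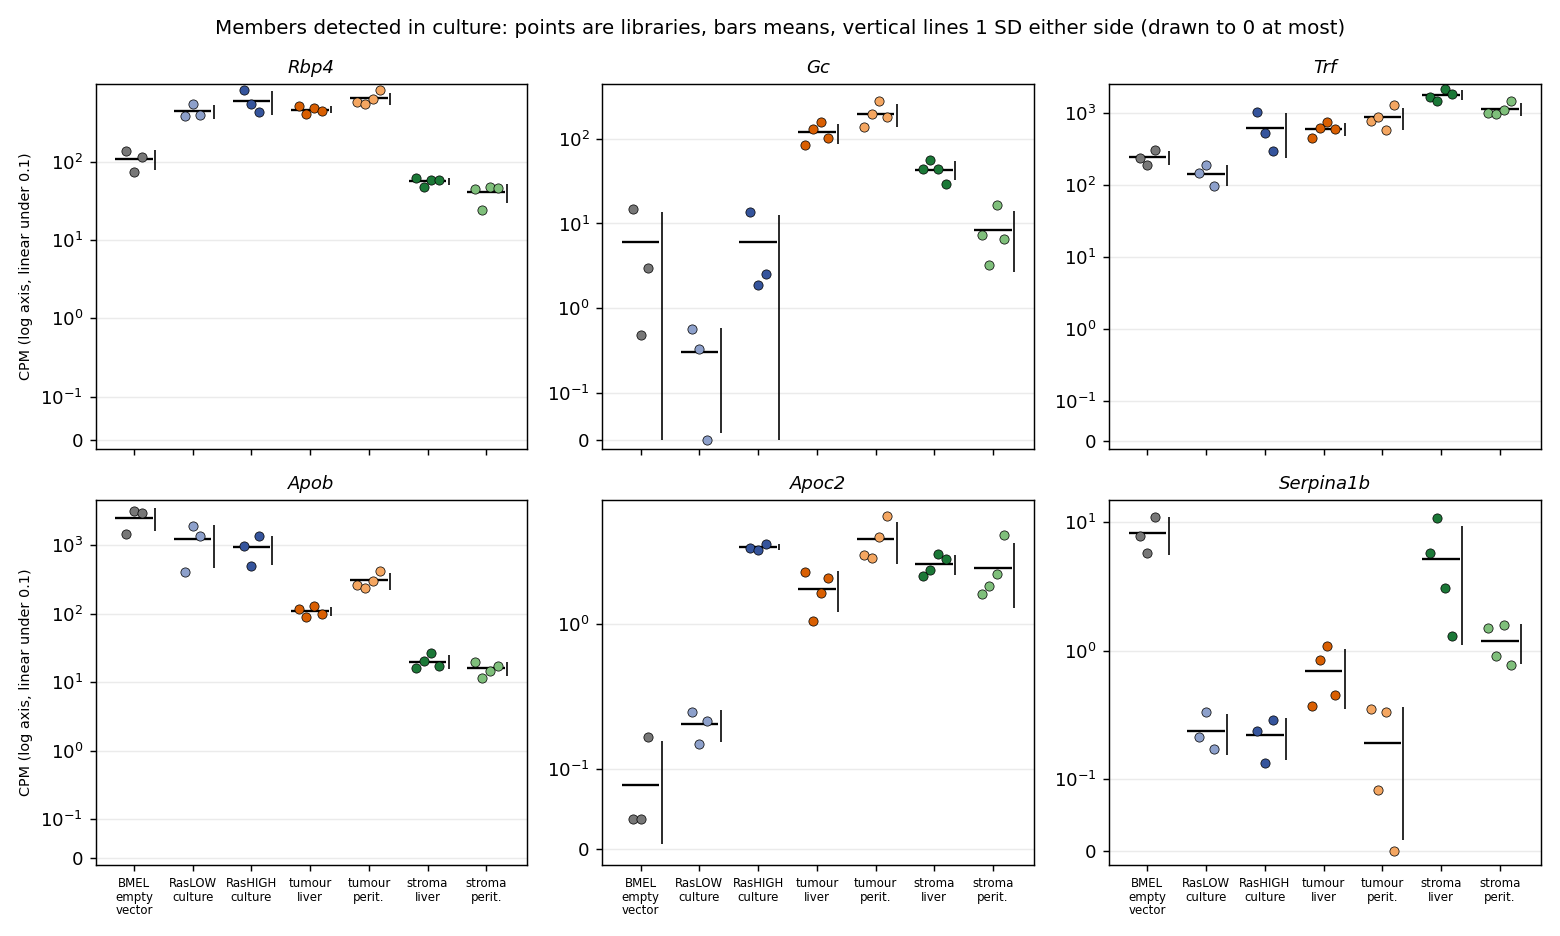
CPM of Rbp4, Gc, Trf, Apob, Apoc2 and Serpina1b in the 7 groups, on a logarithmic axis that is linear under 0.1 CPM, with 1 point per library, bars at group means and vertical lines of 1 SD drawn no lower than 0. Serpina1b is lower and Rbp4 higher in both Ras cultures than in empty vector cells, Apoc2 is above 3 CPM in RasHIGH and under 0.25 CPM in RasLOW, and Gc is above 85 CPM in every tumour cell library.

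Among liver transcription factors, which drive this programme in hepatocytes, 8 of 12 had a mean of at least 1 CPM in empty vector cells, 7 in RasLOW and 9 in RasHIGH. Hnf4a measured 368 to 490 CPM in empty vector cells, 322 to 456 CPM in RasLOW and 360 to 424 CPM in RasHIGH. Of 10 tested, 0 were higher and 1 lower in RasLOW, and 1 was higher and 1 lower in RasHIGH.

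In liver against peritoneal tumour cells of the same 4 mice, 23 of the 46 members passed the filter, and 12 were called, with limits of 1 on the size of the log2 fold change and 0.05 on the unadjusted p. Of these, 10 were higher in the liver, where 1.15% of the 13074 genes tested were, and 2 were lower, where 2.37% were. The 10 were Fga, Fgg, Fgb, Ahsg, Alb, Itih4, Itih3, Vtn, Serpina1b and Hpx. A gene read only in 1 group passes the filter through that group and had to differ, so the count is not evidence of a property of the list. Held to an adjusted p under 0.05, 6 stayed higher and 1 lower, where 1.15% of all genes were called in either direction. The median log2 fold change over the 23 was 0.96, against -0.01 over all genes.

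Fga, Fgb and Fgg, which encode the 3 chains of fibrinogen and lie side by side on chromosome 3 (mm9, from 82811781 at the first base of Fgg to 82853725 at the last base of Fgb), showed the pattern most plainly. Fga measured 0.897, 9.26, 5.33 and 1.80 CPM in liver tumour cells of mice 1 to 4 and had no counts in the peritoneal tumour cells, at least 38.2-fold higher against the level of 3 counts in the shallowest of those libraries (adjusted p = 0.0189). Fgg measured 1.13, 5.10, 4.10 and 0.773 CPM in the liver and had no counts in the peritoneum, at least 24.5-fold higher (adjusted p = 0.0178). Fgb measured 2.32, 8.93, 4.96 and 2.06 CPM in the liver and 0.128, 0.113, 0.137 and 0 CPM in the peritoneum, a log2 fold change of 5.52 (SE 0.69, adjusted p = 0.00676).

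For all 3 chains mouse 2 was the highest and mouse 3 next, above mice 1 and 4. Liver stromal cells of the same mice held more of each. Fga measured 13.8, 45.4, 12.4 and 5.92 CPM there, Fgg 9.99, 33.8, 11.4 and 4.62 CPM and Fgb 34.4, 67.6, 30.7 and 18.7 CPM. In cultures, Fga and Fgg had 1 count in all, in an empty vector culture.

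Alb measured 3.59, 23.3, 27.2 and 5.38 CPM in liver tumour cells and 0.0319, 0.792, 0 and 0.113 CPM in peritoneal tumour cells. The groups did not overlap, and the log2 fold change was 6.09 (SE 1.03, adjusted p = 0.0197). Ahsg, which encodes fetuin-A, a secreted inhibitor of mineral deposition, measured 1.73, 7.35, 5.72 and 1.96 CPM in the liver and 0.191, 0.0283, 0.0195 and 0 CPM in the peritoneum, a log2 fold change of 6.17 (SE 0.85, adjusted p = 0.00844). Ahsg had no counts in any of the 9 cultures.

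Among inhibitors, Itih4, a heavy chain of the inter-alpha-trypsin inhibitor family, measured 1.31, 4.22, 2.89 and 0.644 CPM in the liver and 0.0637, 0.141, 0 and 0 CPM in the peritoneum (log2 fold change 5.48, SE 0.92, adjusted p = 0.0192). Itih3 of the same family measured 0.368, 1.89, 1.66 and 0.483 CPM in the liver and 0.159, 0.141, 0 and 0 CPM in the peritoneum (log2 fold change 3.93, SE 0.93, adjusted p = 0.0509). Serpina1b measured 0.368, 0.845, 1.09 and 0.451 CPM against 0.350, 0.0848, 0.332 and 0 CPM (log2 fold change 1.82, SE 0.72, adjusted p = 0.193). The groups did not overlap for any of the 3 genes, though for Serpina1b the gap was narrow, and its call was lost without the liver library of mouse 2 (unadjusted p = 0.0679) or mouse 3 (unadjusted p = 0.0978) or the peritoneal library of mouse 2 (unadjusted p = 0.0744).

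Hpx and Vtn, which encodes the adhesive plasma protein vitronectin, also passed narrowly. Hpx measured 2.41, 6.19, 7.83 and 2.38 CPM in the liver and 1.82, 2.35, 2.65 and 2.19 CPM in the peritoneum (log2 fold change 1.13, SE 0.40, adjusted p = 0.153), and Vtn 0.460, 1.41, 1.54 and 0.354 CPM against 0.637, 0, 0 and 0.113 CPM (log2 fold change 2.44, SE 1.07, adjusted p = 0.235). Both genes overlapped between sites. With the mouse as a block the calls of both were lost, at log2 fold changes of 0.94 (unadjusted p = 0.0224) and 3.06 (unadjusted p = 0.0713).

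2 apolipoproteins were lower in the liver. Apob measured 118, 89.5, 129 and 100 CPM there and 263, 241, 301 and 429 CPM in the peritoneum, without overlap (log2 fold change -1.44, SE 0.19, adjusted p = 0.00766). Apoc2 measured 2.30, 1.04, 1.63 and 2.06 CPM in the liver and 2.995, 2.86, 4.00 and 5.55 CPM in the peritoneum, also without overlap (log2 fold change -1.08, SE 0.31, adjusted p = 0.0893), a change that fell within the limit of 1 without the liver library of mouse 2 (-0.89) or the peritoneal one of mouse 4 (-0.87). Every peritoneal library lay above every liver library for both genes.

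The most abundant members were not among those called. Per kilobase, and leaving out Trf, for which no length was found, Rbp4 and Gc led at both sites, at 356 and 71.9 RPKM in liver tumour cells and 493 and 120 RPKM in peritoneal tumour cells. Rbp4 measured 512, 400, 488 and 447 CPM in the liver and 574, 538, 637 and 808 CPM in the peritoneum (log2 fold change -0.42, SE 0.14, adjusted p = 0.1204). Gc measured 85.7, 132, 158 and 103 CPM against 138, 197, 284 and 180 CPM (log2 fold change -0.68, SE 0.24, adjusted p = 0.149). In each mouse the peritoneal library held more of both genes than the liver library.

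**Figure D3:**
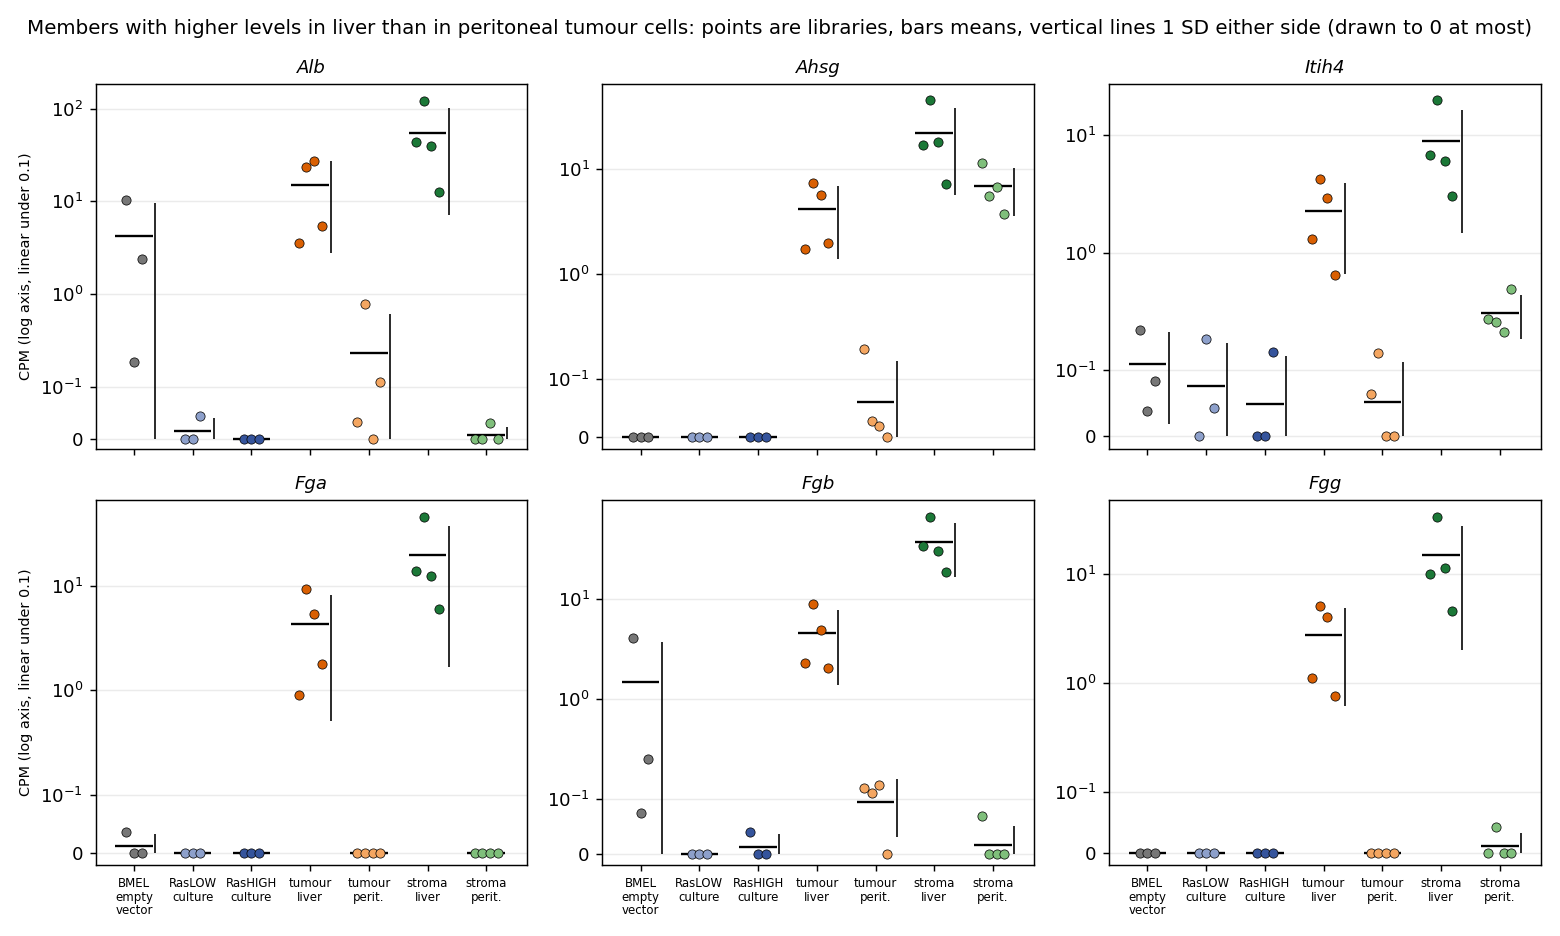
CPM of Alb, Ahsg, Itih4, Fga, Fgb and Fgg in the 7 groups, on a logarithmic axis that is linear under 0.1 CPM, with 1 point per library, bars at group means and vertical lines of 1 SD drawn no lower than 0. For each gene the 4 liver tumour cell libraries lie above the 4 peritoneal ones, Fga and Fgg are at 0 in all peritoneal tumour cells, and the mean of liver stromal cells lies above that of liver tumour cells.

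The transcription factors differed little between the sites. Of 12 listed, 10 were tested and 0 called in edgeR, while 2 had an unadjusted p under 0.05. Hnf4a, the most abundant, measured 198 to 248 CPM in the liver and 287 to 381 CPM in the peritoneum, and Foxa2 85.0 to 110 and 80.0 to 138 CPM. The log2 fold change of Hnf4a was -0.51 (SE 0.11, adjusted p = 0.0330), lower in the liver but within the limit of 1. Of 50 further hepatocyte genes, 17 were tested, 3 were higher and 1 lower in the liver, and the 3 most abundant, F5, Apoe and Fah, were not among the called ones.

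Markers of other liver cells differed between the same tumour cell libraries. Of 7 Kupffer cell genes, 4 were tested and 2 were higher in liver tumour cells. Clec4f, which defines Kupffer cells, measured 0.690, 3.44, 1.04 and 1.83 CPM there and was at 0 in every peritoneal tumour cell library. The summed level of the 7 ran from 20.5 to 23.1 CPM in the liver and from 9.81 to 20.01 CPM in the peritoneum. Most of that sum was Slc40a1, an iron exporter, at 14.4 to 18.0 and 9.39 to 13.03 CPM, which measured 9.35 to 22.9 CPM in cultures and so does not mark Kupffer cells here. Folr2 went the other way, with means of 0.159 CPM in the liver and 1.45 CPM in the peritoneum, and was not tested. Of 8 fibroblast and stellate genes, 6 were tested and 6 were lower in the liver, with sums of 39.1 to 59.3 CPM against 223 to 1532 CPM. The part of host RNA in the members' site difference was not tested.

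Liver stromal cells held the members more widely than any other group. Against peritoneal stromal cells 33 of the 46 were tested, and 23 were higher and 1 lower in the liver, where 3.86% and 10.4% of 14755 genes were. The median log2 fold change of the tested members was 3.25, against 0.02 over all genes. Here too a gene read only in 1 group passes the filter through that group and had to differ. Alb, Fga, Fgb, Fgg and Plg had means of at most 0.0216 CPM in peritoneal stroma. The count and the median are therefore not evidence of a property of the list. Alb measured 43.1, 122, 39.3 and 12.7 CPM in liver stromal cells and had 1 count in all in peritoneal stromal cells. Mouse 2 was the highest of the 4 for Alb, the fibrinogen chains, Plg, Cps1 and Hpd. The 1 lower member, Vtn, measured 4.76, 8.63, 2.90 and 1.44 CPM in the liver and 9.65, 11.6, 9.35 and 4.84 CPM in the peritoneum (log2 fold change -1.13, SE 0.46, adjusted p = 0.0874). This call was lost with total counts (unadjusted p = 0.0615), with all 25 libraries in 1 fit (unadjusted p = 0.162) and without any 1 of 6 of the 8 libraries (mice 1, 3 and 4 in the liver and mice 1, 2 and 3 in the peritoneum, unadjusted p from 0.0551 to 0.085).

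F10, Hp and Arg2 were abundant in stromal cells of both sites, also in the peritoneum where Alb was at or under 1 count, so the hepatocyte label does not describe them in these samples. F10, clotting factor X, measured 270, 227, 268 and 309 CPM in liver stroma and 99.6, 115, 114 and 161 CPM in peritoneal stroma. Hp, the haemoglobin carrier haptoglobin, measured 170, 176, 206 and 177 CPM in the liver and 163, 90.3, 110 and 91.3 CPM in the peritoneum. Arg2, the mitochondrial arginase, measured 220, 121, 187 and 143 CPM and 106, 60.8, 101 and 98.2 CPM. Their level in cultures reached at most 0.300 CPM. Trf was more abundant still in stroma, with means of 1803 CPM in the liver and 1138 CPM in the peritoneum, but was also detected in cultures. Arg2 overlaps Vti1b on the opposite strand in the mm9 annotation, and the strand setting of the counting is not given in the sources used here.

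Within the liver tumours, 40 members were tested between tumour and stromal cells, and 3 were higher and 33 lower in tumour cells, where 16.5% and 27.6% of 14620 genes were. The median log2 fold change was -2.41, against 0.004 over all genes. Here and in the peritoneum a gene read only in stroma had to differ, so the counts show no property of the list. The 3 higher ones were Rbp4 (log2 fold change 2.96, SE 0.13, adjusted p = 1.26e-09), Apob (2.37, SE 0.17, adjusted p = 1.33e-07) and Gc (1.41, SE 0.22, adjusted p = 9.60e-05). The lowest were Arg2 at -8.57 (SE 0.30, adjusted p = 1.75e-10) and F10 at -8.33 (SE 0.23, adjusted p = 2.48e-11).

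The stromal level of the 3 higher members can be set beside that of Krt19, a keratin of bile duct and progenitor cells that the tumour cells express. Krt19 is 1 of the 8 biliary and progenitor genes, and others of that list were higher in liver stroma than in liver tumour cells. Epcam had means of 5.32 CPM in liver stroma and 0.068 CPM in liver tumour cells. The part of host cells in the stromal Krt19 level was not tested. In the liver, stromal cells held 12.8% to 13.7% of the Krt19 level of the tumour cells of the same mouse, 11.8% to 13.2% of the Rbp4 level, 13.6% to 22.9% of the Apob level and 27.8% to 51.4% of the Gc level. In the peritoneum the shares were 5.12% to 6.94% for Krt19, 4.47% to 7.84% for Rbp4, 4.06% to 7.64% for Apob and 1.65% to 5.86% for Gc. Trf and Apoc2 lay far above Krt19, with Trf at 238% to 375% in the liver and 109% to 193% in the peritoneum, and Apoc2 at 92.7% to 226% and 53.9% to 74.6%. How much of the stromal signal came from tumour cells in the sort was not tested.

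In the peritoneum 18 members were tested, and 7 were higher and 9 lower in tumour cells, where 16.3% and 27.5% of 14584 genes were. The higher ones were Gc, Apob, Rbp4, Itih2, Apoa1, Hpx and Ambp, with log2 fold changes from 1.67 to 4.44, and the median over the 18 was -1.56, against 0.07 over all genes. The call of Ambp was lost without the tumour cell library of mouse 2 or the stromal library of mouse 3 or 4 (unadjusted p = 0.0711, 0.0522 and 0.0528). Among the lower ones, Ahsg measured 11.5, 5.49, 6.75 and 3.75 CPM in peritoneal stroma against at most 0.191 CPM in peritoneal tumour cells. Hp reached 4.53 CPM and F10 2.93 CPM in peritoneal tumour cells of mouse 1, and at most 0.170 and 0.604 CPM in the other 3 mice. This was the tumour cell library with the most leukocyte and fibroblast RNA.

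For the 40 members with a mean of at least 1 CPM in liver stroma, the level in liver tumour cells was expressed as a percentage of that in stromal cells of the same mouse. The classes were formed from stromal and culture levels, so the values are a description. For the 19 genes in liver stroma alone the median percentage was 6.12, 15.1, 31.3 and 21.9 in mice 1 to 4. For the 8 genes in stroma of both sites it was 3.73, 10.98, 24.1 and 9.80, and for the 13 genes detected in culture 32.1, 33.1, 53.8 and 73.3. The 5 of those 8 genes that reached 10 CPM in liver stroma had lower medians, of 0.852, 2.44, 1.79 and 1.06.

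The markers of other host cells gave smaller percentages. The median was 0.233, 0.327, 0.3204 and 0.443 over 10 leukocyte genes, 0.777, 1.46, 1.29 and 3.596 over 7 Kupffer cell genes, 1.17, 1.02, 0.825 and 1.31 over 8 endothelial genes and 0.504, 0.852, 0.970 and 1.73 over 7 fibroblast and stellate genes. In each mouse the median of the 19 genes in liver stroma alone was above that of each of these 4 marker lists. The lists differ in stromal level, and only 3 of the 19 reached 10 CPM in liver stroma, with medians of 6.51 to 36.1 over the mice. Among the further hepatocyte genes, 33 reached 1 CPM there, with medians of 7.95 to 30.1. The 7 of them that reached 10 CPM had medians of 0.869 to 1.70, within the range of the marker lists. Single genes departed from these medians. A Kupffer cell gene reached 21.1% and an endothelial gene 181%, while F9 was at 0 in 2 of the 4 liver tumour cell libraries. Arg2 measured 0.299, 0.394, 0.477 and 0.741 CPM in liver tumour cells against 121 to 220 CPM in stroma.

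Among the 19 genes, the mean levels in liver tumour and liver stromal cells ran together (Pearson 0.73 and Spearman 0.62 of log2 CPM with a pseudocount of 0.1, across 19 genes that share libraries and are not independent). The same values were 0.80 and 0.82 over the 13 genes detected in culture, and 0.10 and 0.12 over the 8 genes in stroma of both sites. The summed level of the 19 genes was 5.99 to 29.5 CPM in liver tumour cells and 0.664 to 2.995 CPM in peritoneal tumour cells. It was 27.8 to 205 CPM in liver stroma, 1.82 to 2.85 CPM in peritoneal stroma and 0.177 to 1.37 CPM over the 9 cultures. The liver tumour cell libraries lay between the liver stromal libraries and all the others, and met the stromal range only at its lower end. The class was formed from levels in stroma and cultures, so the order of those groups follows from its definition. Tumour cell levels were not used to form it.

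**Figure D4:**
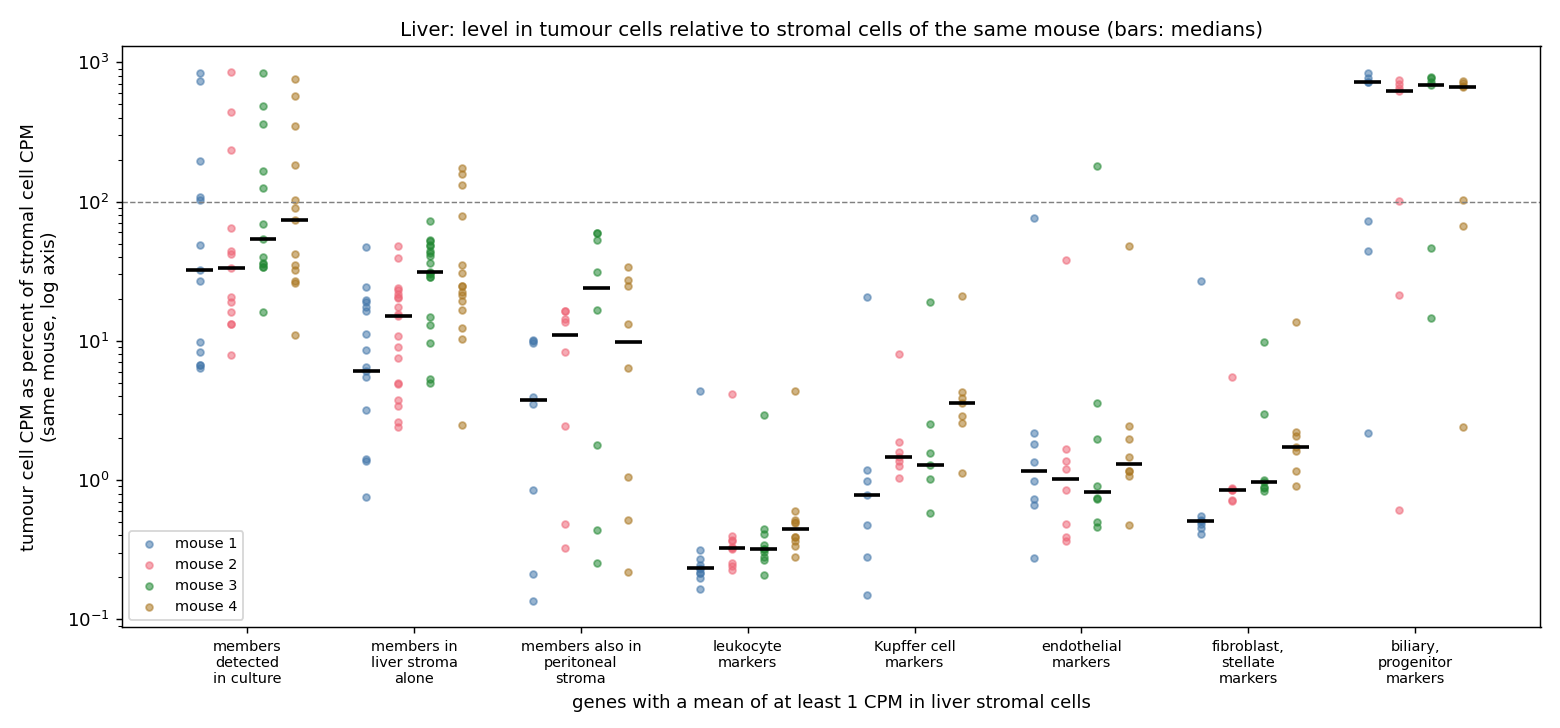
CPM in liver tumour cells as a percentage of CPM in liver stromal cells of the same mouse (logarithmic axis), for genes with a mean of at least 1 CPM in liver stroma, with 1 point per gene and mouse, colours for mice and bars at medians. Values of 0, 17 of 508 over all gene lists, are not drawn. Leukocyte, Kupffer, endothelial and fibroblast markers have medians between 0.233% and 3.596%, the 19 members in liver stroma alone between 6.12% and 31.3%, and the biliary and progenitor markers between 618% and 722%, with single markers of most lists far from their median.

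Against cultured RasHIGH cells, liver tumour cells had 24 members tested, of which 19 were higher and 2 lower, where 15% and 8.55% of 12971 genes were. The median log2 fold change was 3.89, or 2.80 with the 8 genes that had no counts in RasHIGH set at their lower bound, against -0.01 over all genes. Those 8 genes passed the filter through the tumour cells and had to differ, so the count is not evidence of a property of the list. Peritoneal tumour cells had 11 tested, of which 4 were higher and 2 lower, where 13.4% and 6.72% of 12791 genes were, with a median of 0.57 against -0.01. Among the 11, Apoa4 had no counts in RasHIGH and had to differ in the same way. This count too is not evidence of a property of the list. Growth in mice, dissociation, sorting and sequencing lane all differ between these groups and cannot be told apart, and both comparisons share the RasHIGH libraries. Of the 8 fibroblast and stellate genes, 6 were tested and 6 were higher in tumour cells of each site than in RasHIGH, and of 7 Kupffer cell genes 4 of 5 tested were higher in the liver, and the part of host RNA was not tested. In the peritoneal comparison the number called fell to 3 without the peritoneal tumour library of mouse 1 and to 3 without that of mouse 2.

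Gc was higher in tumour cells of both sites than in RasHIGH cultures. Its log2 fold change was 4.40 in the liver (SE 0.69, adjusted p = 0.00115) and 5.08 in the peritoneum (SE 0.73, adjusted p = 0.00178). Ambp, the precursor of alpha-1-microglobulin and bikunin, measured 1.23, 0.179 and 1.58 CPM in RasHIGH, 3.70, 4.28, 8.47 and 4.38 CPM in liver tumour cells and 7.39, 10.0, 5.66 and 1.36 CPM in peritoneal tumour cells (log2 fold changes 2.497 and 2.67, adjusted p = 0.00859 and 0.0322). Ttr, the thyroxine carrier, and Apoa4, an apolipoprotein of chylomicrons, were also higher at both sites. The log2 fold change of Ttr was 3.88 in the liver (adjusted p = 0.00628) and 3.53 in the peritoneum (adjusted p = 0.0269), and Apoa4 was at least 7.47-fold and 4.07-fold higher (adjusted p = 0.00164 and 0.0104). Ttr stayed between 0.137 and 1.66 CPM in all 8 tumour cell libraries and Apoa4 between 0.156 and 1.85 CPM, and each gene overlaps a transcript of the opposite strand in the mm9 annotation.

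Apob was lower than in RasHIGH cultures at both sites, at log2 fold changes of -3.01 in the liver (SE 0.30, adjusted p = 1.25e-04) and -1.56 in the peritoneum (SE 0.33, adjusted p = 0.00787). Itih2, another heavy chain of the inter-alpha-trypsin inhibitor family, measured 30.8, 9.57 and 7.92 CPM in RasHIGH, 6.76, 6.48, 7.07 and 5.57 CPM in the liver and 3.50, 6.73, 1.72 and 9.59 CPM in the peritoneum (log2 fold changes -1.22 and -1.54, adjusted p = 0.0440 and 0.0893). RasHIGH replicate 1 carried both calls of Itih2, since without it the log2 fold change was -0.34 in the liver (unadjusted p = 0.0982) and -0.67 in the peritoneum (unadjusted p = 0.279). Alb, which had no counts in RasHIGH, was at least 103-fold higher in liver tumour cells (adjusted p = 0.00243).

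The site difference was itself compared between tumour and stromal cells. Of 39 members tested for this interaction, 4 had a larger liver excess in tumour cells and 14 a smaller one, where 5.35% and 5.24% of 15331 genes did. The median was -1.74, against -0.12 over all genes. A gene read only or almost only in liver stroma passes the filter through that group and had to differ. The counts and the median are therefore not evidence of a property of the list. Gc was 5.16-fold higher in liver than in peritoneal stroma by group means, and 0.599 times its peritoneal level in liver tumour cells (interaction log2 fold change -2.98, SE 0.54, adjusted p = 0.00178). Hpx was higher in the liver in both, with a smaller excess in tumour cells (-4.29, SE 0.68, adjusted p = 7.09e-04). Its means in liver and peritoneum were 4.70 and 2.25 CPM in tumour cells and 23.8 and 0.535 CPM in stroma. Ahsg differed in the other direction (4.57, SE 1.13, adjusted p = 0.0133), with stromal levels of 17.2, 45.2, 18.3 and 7.17 CPM in the liver and 3.75 to 11.5 CPM in the peritoneum.

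Of the genes of intracellular metabolism, the carrier Fabp1 and the enzymes Cps1, Tat, Pck1 and Hpd had means of 1 CPM or more in liver stroma and stayed under 1 CPM in every tumour cell library. Pck1, the control point of gluconeogenesis, reached 0.982 CPM in liver tumour cells of mouse 3, and Cps1, the entry enzyme of the urea cycle, at most 0.338 CPM. G6pc, Tdo2, Otc and Hamp had no counts in peritoneal tumour cells and at most 0.253 CPM in liver tumour cells. Ass1, another urea cycle enzyme, was at no more than 0.0917 CPM in any library, and at 0.0351 CPM in liver stroma of mouse 2, where Alb reached 122 CPM.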

How the data were processed

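The authors prepared poly(A) libraries from sorted or cultured cells, aligned reads to mm9 with TopHat2 per the paper's methods, and deposited read counts for each gene that had not been normalized. The submitters' processing notes also name FastQC, Bowtie 0.12.2 and the builds mm8 and mm10. The counting program, its annotation and its strand setting are not given in the sources used here. All 25 value columns were matched to samples by library identifier. Groups came from the sample titles.

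CPM were counts over total counts, and RPKM divided these by the exon length of GENCODE vM1 on mm9. Trf has no unique locus there and so no RPKM. Groups were compared pairwise in R 4.3.3 with edgeR 4.0.16 (filterByExpr with minimum count 10, TMM, quasi-likelihood F-test) over all genes, with Benjamini-Hochberg adjustment. Limits took their sizes from the study, an absolute log2 fold change above 1.5 and p under 0.01 in cultures and above 1 and under 0.05 otherwise. The p was used unadjusted here, although the study's text does not say which p it means and its lists for cultures carry adjusted values, and adjusted p was an alternative. Standard errors were the absolute log2 fold change over the root of F. Folds against a group without counts used 3 counts in its shallowest library. Tested on simulated data, the step recovered 193 of 199 changed genes for RasLOW against empty vector with 28 false calls among 12193 genes tested, and 194 of 194 for liver against peritoneal tumour cells, with 100 false calls among 12945 genes tested. Intervals and limits from counts cover counting error only.

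Alternatives were DESeq2 1.42.0, RLE, total counts, no filter, adjusted p, 1 fit of all 25 libraries, single libraries left out, the replicate block, lane 4 alone, lane as a term, TMM-scaled CPM and a 10 CPM minimum for the ratios. Adjusted p with lane or block was added after seeing the data. The mouse pairs the samples, as the same animal gave the tumour and stroma of both sites, and correlations of deviations were -0.22 to 0.03 between tumour cells of the 2 sites, 0 to 0.27 between stromal cells and 0.08 to 0.28 between tumour and stroma. Every member may be named; values of each library are given for members called between tumour sites (up to 4 by fold in each group of genes) or by Ras with at least 1 CPM in culture, and others by range. The members and lists were chosen with earlier results of these data known, and the 4 classes and the Krt19 comparison after values had been seen. The level of 1 listed transcription factor is not reported here.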

Additional observations from a re-analysis of the deposited data

Results flagged for a closer look

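Of 85 groups of 4 libraries examined, 9 held a library whose gap to its nearest neighbour exceeded Dixon's critical share of the group's range, which chance exceeds in about 1 of 20 groups. In liver tumour cells Ambp reached 8.47 CPM in mouse 3 (median of the others 4.28 CPM). In peritoneal tumour cells of mouse 1 Hp reached 4.53 CPM (others 0.151 CPM) and F10 2.93 CPM (others 0.351 CPM). In liver stroma of mouse 2 Plg reached 9.44 CPM (others 2.35 CPM), Itih3 22.8 CPM (others 9.34 CPM), Cps1 4.46 CPM (others 0.570 CPM) and Hpd 7.40 CPM (others 0.859 CPM). In peritoneal stroma of mouse 2 Rbp4 fell to 24.0 CPM (others 45.4 CPM) and Arg2 to 60.8 CPM (others 101 CPM).

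For 13 members the liver minus peritoneum difference itself differed between tumour and stromal cells, by the interaction term of edgeR's quasi-likelihood fit. It was larger in tumour cells for Ahsg (4.58 on the log2 scale, adjusted p = 0.0133) and Serpina3k (6.95, adjusted p = 0.0329). Among plasma carriers it was smaller for Ttr (-6.49, adjusted p = 0.00896), Trf (-1.12, adjusted p = 0.0324), Hpx (-4.29, adjusted p = 7.09e-04), Ambp (-2.27, adjusted p = 0.0466) and Gc (-2.98, adjusted p = 0.00178). Among apolipoproteins it was smaller for Apoa1 (-4.52, adjusted p = 0.00818), Apoa2 (-5.18, adjusted p = 0.0382), Apoa4 (-4.11, adjusted p = 0.0243) and Apob (-1.74, adjusted p = 0.00147), and elsewhere for Fgb (-5.27, adjusted p = 0.0408) and Itih2 (-2.995, adjusted p = 0.00830). The values of Serpina3k, Fgb, Ttr, Apoa2 and Apoa4, which are at or near 0 in a group, depend on the prior count of the fit and are not bounds.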

How the results depend on the processing

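Of 162 alternative counts and ratios, 144 stayed within 1.5 times the reported count or 1 SD of the reported ratio, and 18 did not. Values of single members were followed only for members called in the main fit and still tested in the alternative. Of these values, 2286 kept their direction and side of the limit, 115 kept their direction alone and 0 reversed. Gained calls are not among them, and with adjusted p of the same fit the direction could not change. With no filter on low counts, the members called rose to 9 for RasLOW and 8 for RasHIGH against empty vector, 28 between tumour sites, and 34 and 10 for liver and peritoneal tumour cells against RasHIGH. With all 25 libraries in 1 fit they were 9, 8 and 27 for the first 3 of these, and 10 for peritoneal tumour cells against RasHIGH. With adjusted p they were 2 for RasLOW against empty vector and 0 for RasHIGH against RasLOW, where 0 of all 11962 genes were called. Between tumour sites 7 members were called with adjusted p. There adjusted p with lane as a term gave 6 and with the replicate block 7 (both chosen after seeing the data). With single libraries left out, the count ran from 4 to 8 for RasLOW and 5 to 7 for RasHIGH against empty vector, 1 to 3 for RasHIGH against RasLOW, 8 to 17 between tumour sites, 23 to 34 between stromal sites, 29 to 40 and 17 to 20 for tumour against stroma in the liver and peritoneum, 17 to 28 and 3 to 8 for liver and peritoneal tumour cells against RasHIGH, and 14 to 19 for the interaction. With the replicate block 11 members were called between tumour sites, without Hpx and Vtn, and 4, 5 and 3 between cultures, which share only a number (correlations -0.27 to -0.01, -0.15 to 0.14 and -0.62 to 0.29). The other paired counts were 24, 36, 16 and 18, as without the block. No paired analysis was possible for tumour cells against RasHIGH because a number shared by a mouse and a culture stands for no shared animal or batch. The cause of these changes was not tested, apart from the genes that a filter removes. A gene under 0.144 CPM could not be told from absent in the shallowest library.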
